A study of Mus musculus with 12 samples.

Results

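The A, B, D and E type cyclins are the regulatory subunits that switch on the kinases of the cell cycle, and 10 of their genes (*Ccnd1*, *Ccnd2*, *Ccnd3*, *Ccne1*, *Ccne2*, *Ccna1*, *Ccna2*, *Ccnb1*, *Ccnb2* and *Ccnb3*) were followed here in sorted mouse spermatogonia. They were taken by gene symbol from a table of 55385 genes in which levels are given as TPM, an estimate of transcript abundance scaled by transcript length and to one total for every library. Levels can therefore be compared between genes within a library. Each symbol matched 1 row, and all 10 genes passed the filter on low values (at least 1 TPM in at least 2 of the compared libraries) in every comparison.

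As background, a cyclin binds a cyclin-dependent kinase (CDK) and gives it activity and substrates, and many cyclins are made and destroyed in each cycle. D-type cyclins with CDK4 or CDK6 respond to growth signals and begin the phosphorylation of the retinoblastoma protein RB, E-type cyclins with CDK2 take the cell into S phase, A-type cyclins act in S phase and G2, and B-type cyclins with CDK1 drive mitosis. *Ccna1* and *Ccnb3* are known mainly from meiotic germ cells. In the testis, undifferentiated spermatogonia (Aundiff) hold the stem cells, which divide slowly, and differentiating spermatogonia (Adiff) pass through a series of rapid divisions before meiosis.

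RNA-seq was made from 12 libraries in 6 groups of 2, each library from pooled sorted cells and described as an independent biological replicate. Wild-type (WT) Aundiff (E-Cadherin+, CD9 high, KIT-) and Adiff (E-Cadherin+, CD9 medium, KIT+) came from untreated C57BL/6 males of 2 to 3 mo, with 100000 to 150000 cells per library. The other 4 groups were Aundiff of C57BL/6 X FVB/NJ mice. PRC1cKO stands for Ring1-/-; Rnf2 F/-; Ddx4-Cre, in which the germline-expressed Cre removes the remaining copy of *Rnf2*, a catalytic subunit of Polycomb repressive complex 1 (PRC1), and PRC1ctrl for the littermates Ring1-/-; Rnf2 F/+; Ddx4-Cre, so all 8 of these libraries lacked *Ring1*, carried the Cre and held 1 floxed *Rnf2* allele. One pair of groups was untreated at 2 mo, with 7000 cells per library. The other pair had received Win18446, an inhibitor of retinoic acid synthesis that holds spermatogonia before differentiation. It was given at 40 µg/µl in 50 µl DMSO by about 30 daily subcutaneous injections from 1 mo of age, with 100000 to 150000 cells per library. These mice were also sampled at 2 mo, so the name 2 mo below stands for the untreated pair and not for a difference in age. The WT and Win18446 libraries were made with a stranded polyA kit (TruSeq) and the 2 mo libraries with a low-input Smart-Seq2 kit, so the kit and the number of cells cannot be told apart from the difference between the 2 mo group and the others, and levels were ranked only within a kit.

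Genes detected at 1 TPM or more numbered 12422 to 13986 in the 4 low-input libraries and 14796 to 16599 in the other 8, and the sequencing depth behind a TPM value is unknown. *Ring1* had 8.61 and 10.36 TPM in WT Aundiff and 0.03 to 0.25 TPM in the 8 PRC1 libraries. *Rnf2* was not lower under the label PRC1cKO, at 28.26 and 47.63 TPM in PRC1ctrl against 56.73 and 67.48 TPM in PRC1cKO at 2 mo, and at 78.09 and 67.16 against 86.17 and 93.14 TPM after Win18446. A value per gene does not separate transcripts with and without the floxed exon, so the groups are given below as the libraries labelled PRC1ctrl and PRC1cKO. Markers of somatic testis cells other than Leydig cells were low, with summed levels over the 12 libraries of 9.12 to 71.3 TPM for 7 Sertoli genes, 0.86 to 32.7 TPM for 6 macrophage genes, 1 to 46.0 TPM for 4 peritubular myoid genes and 1.05 to 14.3 TPM for 3 endothelial genes. In bulk samples, a larger share of cells in a phase or of a type and more RNA per cell cannot be told apart.

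All 10 genes are protein coding in the GRCm38 annotation. Near-identical copies were found for *Ccnb1*, whose transcript is shared at 95% identity or more with 4 other annotated genes over up to 52.0% of its length, and for *Ccnd3*, over 18.6% with Ccnd3-ps. None of these 5 copies passed 0.43 TPM in any library. Exons of a gene on the opposite strand overlap 23.4% of the exonic bases of *Ccnd1*, 17.4% of *Ccne2*, 12.5% of *Ccna2*, 10.1% of *Ccna1*, 7.87% of *Ccnd2* and 4.11% of *Ccnd3*, which bears most on the low-input libraries, for which no strand information is stated.

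As a group, the 10 cyclins were more abundant in WT Adiff than in WT Aundiff, and the mix of D-type cyclins changed over. Their summed level was 628 and 608 TPM in the WT Aundiff libraries and 990 and 930 TPM in the WT Adiff libraries. In a limma fit on log2(TPM + 1) with Benjamini-Hochberg adjustment over all genes tested, a gene was called when its adjusted p was under 0.05 and its log2 fold change exceeded 1 in size. Called higher in Adiff were *Ccnd1*, *Ccne1*, *Ccne2* and *Ccna2*, 4 of 10 against 11.1% of all 15470 genes tested, and called lower were 0 of 10 against 9.24%. At an adjusted p under 0.05 at any fold, *Ccnb1* and *Ccnb2* joined them to make 6 of 10 higher against 23.4% of all genes, and *Ccnd2* and *Ccnd3* made 2 of 10 lower against 14.7%. The libraries of the 2 groups did not overlap for 7 members that were higher in Adiff (43.4% of all genes) and 3 that were lower (28.7% of all genes). Of the list, the median log2 fold change was 0.89 against 0.15 over all genes.

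**Figure D1:**
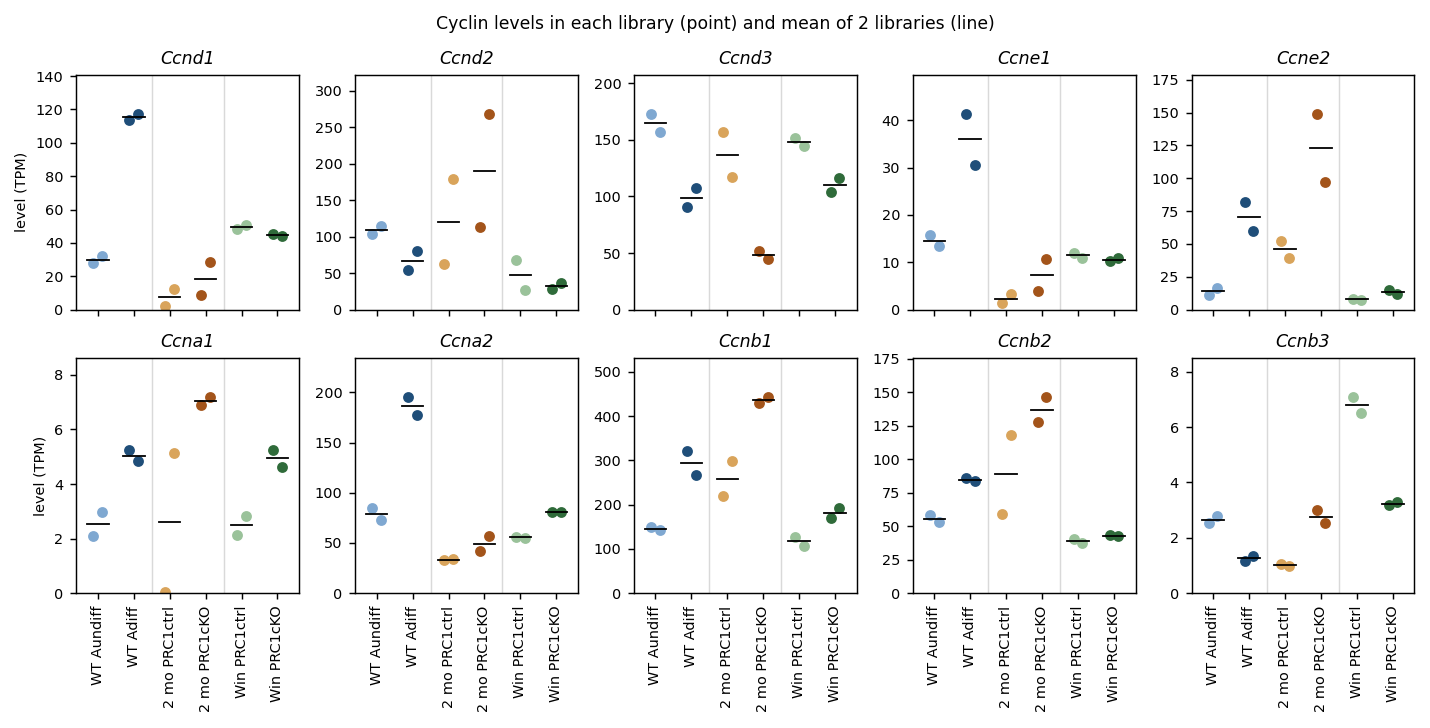
Level of each cyclin in TPM (vertical axis from 0, a scale of its own in each panel) in the 12 libraries, with 1 point per library and a line at the mean of each group of 2. *Ccnd1* stood at 114 and 117 TPM in WT Adiff and below 51 TPM in every other TruSeq library, *Ccnd3* was lower in each second group of a pair, and *Ccnb3* was highest among the TruSeq libraries in those labelled Win18446 PRC1ctrl. The 2 mo libraries were made with another kit, so their levels are not to be ranked with the rest.

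Among the D-type cyclins, the first to act in the cycle, *Ccnd1* (ENSMUSG00000070348, chromosome 7 from 144929931 to 144939925, minus strand) had 27.75 and 32.28 TPM in WT Aundiff and 113.92 and 117.45 TPM in WT Adiff. *Ccnd3* (ENSMUSG00000034165, chromosome 17 from 47505051 to 47599691, plus strand) went the other way, from 173.16 and 157.1 TPM to 90.67 and 107.07 TPM. Its log2 fold change was -0.74 (standard error 0.14, adjusted p = 0.00962), less than the fold needed for a call. *Ccnd2* (ENSMUSG00000000184, chromosome 6 from 127125162 to 127152193, minus strand) also fell, from 103.26 and 114.86 TPM to 53.63 and 80.36 TPM, with a log2 fold change of -0.72 (standard error 0.21, adjusted p = 0.0360). In all 3 genes the libraries of the 2 groups were apart.

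The summed level of the D-type cyclins differed little, at 304.2 TPM in each WT Aundiff library and 258.2 and 304.9 TPM in the WT Adiff libraries, while its makeup changed. *Ccnd3* made up 56.9% and 51.6% of the D-type sum in WT Aundiff, and *Ccnd1* 9.12% and 10.6%. In WT Adiff, *Ccnd1* made up 44.1% and 38.5%, and *Ccnd3* 35.1% in each library. *Ccnd1* thus passed *Ccnd3* as the most abundant D-type transcript in both Adiff libraries. With 2 libraries a group, an exact permutation test of such a share cannot go below p = 0.33 (two-sided), so the shares are given without a test.

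The E-type cyclins, which act with CDK2 at the start of S phase, rose together. *Ccne2* (ENSMUSG00000028212, chromosome 4 from 11191351 to 11204779, plus strand) had 11.3 and 16.3 TPM in WT Aundiff and 82.02 and 59.56 TPM in WT Adiff, the largest log2 fold change of the 10 genes (2.28, standard error 0.24, adjusted p = 0.00179). *Ccne1* (ENSMUSG00000002068, chromosome 7 from 38097984 to 38107534, minus strand) had 15.69 and 13.44 TPM against 41.37 and 30.5 TPM. Together the E-type sum was 27.0 and 29.7 TPM in WT Aundiff and 123 and 90.1 TPM in WT Adiff. *Ccne2* made up 41.9% and 54.8% of it in Aundiff, where the genes were about level, and 66.5% and 66.1% in Adiff, where *Ccne2* was the larger in both libraries.

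The A-type sum was almost all *Ccna2*, the somatic A-type cyclin of S phase and G2, which made up at least 96.1% of it in each WT library. *Ccna2* (ENSMUSG00000027715, chromosome 3 from 36564865 to 36572150, minus strand) had 84.36 and 72.7 TPM in WT Aundiff and 195.12 and 177.49 TPM in WT Adiff. Its log2 fold change was 1.24 (95% interval 0.91 to 1.57). *Ccna1* (ENSMUSG00000027793, chromosome 3 from 55045469 to 55055501, minus strand), a germline A-type cyclin needed for male meiosis, was low in both, at 2.1 and 2.96 TPM against 5.23 and 4.86 TPM. The libraries did not overlap, but the difference (0.79, standard error 0.25) missed the threshold with a adjusted p of 0.0517.

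The B-type cyclins of mitosis, *Ccnb1* and *Ccnb2*, rose by less than the E-type cyclins. *Ccnb1* (ENSMUSG00000041431, chromosome 13 from 100778650 to 100786570, minus strand) was the most abundant of the 10 genes in WT Adiff, at 320.75 and 267.73 TPM against 149.95 and 142.25 TPM in WT Aundiff. Its log2 fold change of 1.00 (standard error 0.13, adjusted p = 0.00351) lay just under the fold needed for a call. *Ccnb2* (ENSMUSG00000032218, chromosome 9 from 70407692 to 70421547, minus strand) had 58.01 and 53.24 TPM against 86 and 83.38 TPM, a log2 fold change of 0.60 (standard error 0.13, adjusted p = 0.0154). *Ccnb3* (ENSMUSG00000051592, chromosome X from 6979652 to 7041619, minus strand), which is known from early meiosis, was listed at 2.54 and 2.78 TPM against 1.17 and 1.34 TPM, and its log2 fold change of -0.70 did not pass (adjusted p = 0.0750). *Ccnb3* was the only B-type cyclin whose level was lower in both Adiff libraries than in both Aundiff libraries.

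The promoters of the 3 B-type genes are shown here, and a link between their letters and the levels was not tested. The stretches are from RefSeq (GRCm38.p6), 5′ to 3′ on the strand of the gene. Each ends just before the RefSeq start or the first exon base annotated in GENCODE vM21, whichever comes first. Counted from the RefSeq start, that of *Ccnb1* runs from -244 to -85. Those of *Ccnb2* and *Ccnb3* run from -160 to -1, so the stretches do not cover like positions. Capitals mark the searched letters, which were CCAAT (the CCAAT box), TTTGAA (the cell cycle homology region, CHR) and the E2F-like core TTCCCGC with its variant forms TTCGCGC and also TTGGCGC, each on both strands. The 160 bases of *Ccnb1* lie at chr13:100786571-100786730, those of *Ccnb2* at chr9:70421555-70421714 and those of *Ccnb3* at chrX:7041620-7041779, all on the minus strand.
Ccnb1: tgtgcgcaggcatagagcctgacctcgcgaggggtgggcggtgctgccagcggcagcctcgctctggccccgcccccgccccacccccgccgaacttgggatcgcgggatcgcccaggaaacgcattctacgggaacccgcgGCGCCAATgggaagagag
Ccnb2: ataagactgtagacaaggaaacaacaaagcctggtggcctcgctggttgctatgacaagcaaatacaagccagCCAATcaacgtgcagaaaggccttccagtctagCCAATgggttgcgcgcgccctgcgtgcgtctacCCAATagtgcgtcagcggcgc
Ccnb3: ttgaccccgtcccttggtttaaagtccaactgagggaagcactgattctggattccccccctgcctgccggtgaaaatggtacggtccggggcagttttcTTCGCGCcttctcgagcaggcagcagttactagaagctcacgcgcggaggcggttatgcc

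In the whole window of 300 bases around each RefSeq start, CCAAT was found 3 times for *Ccnb2*, 2 times for *Ccnb1* and 0 times for *Ccnb3*. Of all 32851 windows in the table, 37.4% hold CCAAT, so its presence is common. TTTGAA was found for *Ccnb2*, as in 17.9% of all windows, and 1 of the E2F-like cores for *Ccnb1* and for *Ccnb3*, as in 8.07%. The core in *Ccnb1* overlaps a CCAAT box. A window was given for 6 of the 10 genes (also *Ccna1*, *Ccnd3* and *Ccne1*), and not for *Ccna2*, *Ccnd1*, *Ccnd2* and *Ccne2*. CCAAT was found 1 time for *Ccna1*. For *Ccnd3*, which was lower in WT Adiff, it was found 1 time at the start at 47593467 and 0 times at 47505051. For *Ccne1*, which was called higher, it was found 0 times. TTTGAA and the E2F-like cores were found 0 times for these genes. CCAAT thus did not go with the direction of change over all the windows.

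The markers of the sorted cells moved with these differences. The summed level of 8 genes of differentiating spermatogonia was 548 and 598 TPM in WT Aundiff and 2220 and 2312 TPM in WT Adiff, and that of 10 genes of undifferentiated spermatogonia 1116 and 1198 against 502 and 491 TPM. Spermatid genes were present in both, with a summed level over 8 genes of 803 and 882 TPM in Aundiff and 551 and 740 TPM in Adiff, and spermatocyte genes summed to 93.5 and 89.7 against 121 and 121 TPM. The part of such cells in the levels of *Ccna1* and *Ccnb3* was not tested. When both groups were scaled by median of ratios, the median log2 fold change over all genes moved from 0.15 to -0.0021 and the share of lower among called genes from 45.3% to 60.0%. The 4 called cyclins stayed called, while *Ccnb2* missed (adjusted p = 0.0517) and *Ccnb3* passed as lower (-0.81, adjusted p = 0.0493). With plain moderation (no trend or robust options), *Ccna1* passed as higher (adjusted p = 0.0377) and *Ccnb3* as lower (0.0313), while *Ccnd2* missed (0.0822). *Ccnd2* missed without a filter too (0.0935). In fits with 1 library fewer, *Ccnb2*, *Ccnd2* and *Ccnd3* kept their direction and in part missed the threshold. Without WT Aundiff replicate 1 their log2 fold changes were 0.66, -0.80 and -0.67 (adjusted p-values 0.0625, 0.091 and 0.0669), without WT Aundiff replicate 2 those of *Ccnb2* and *Ccnd2* were 0.54 and -0.65 (0.1 and 0.143), and without WT Adiff replicate 1 that of *Ccnd2* was -0.43 (0.0662). *Ccnb1* was called without WT Aundiff replicate 1 (log2 fold change 1.04) and without WT Adiff replicate 2 (1.13), where *Ccnd2* was called lower too (-1.01).

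**Figure D2:**
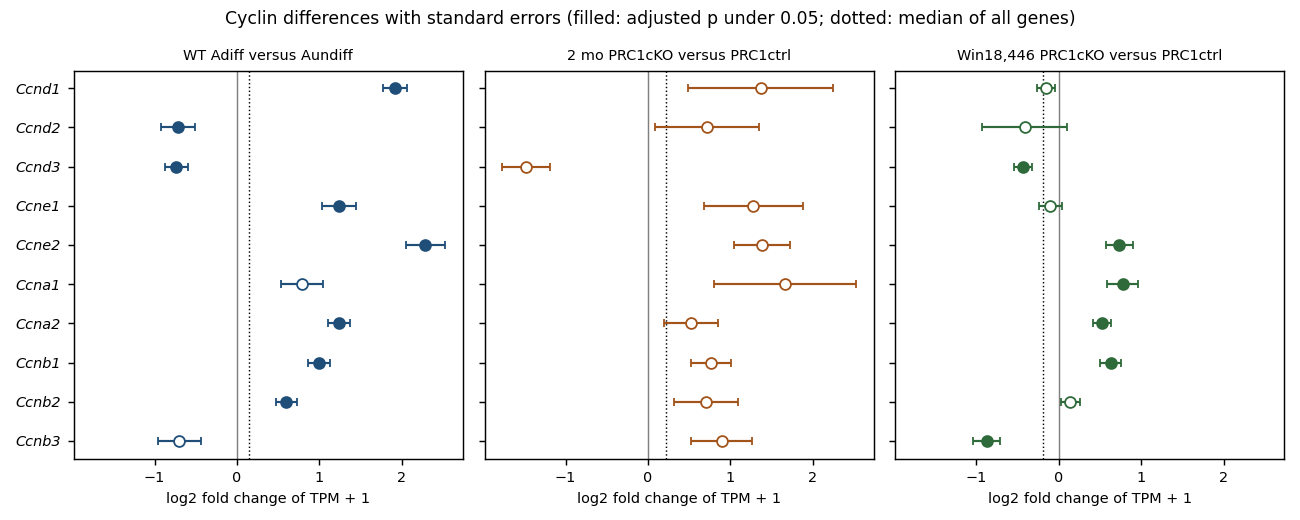
Log2 fold change of TPM + 1 (horizontal axis) with its standard error (bars) for each cyclin in the 3 comparisons. Filled points had an adjusted p under 0.05, and the dotted line is the median over all genes tested, at 0.15, 0.22 and -0.19. The errors were widest at 2 mo, where no point is filled.

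At 2 mo, the comparison of libraries labelled PRC1cKO and PRC1ctrl asked what the loss of PRC1 does in Aundiff of the adult testis. Of the 10 cyclins, 9 had higher means in PRC1cKO and *Ccnd3* a lower one, but no cyclin passed the test. Called higher were 0 of 10 against 0.222% of the 13953 genes tested, and called lower 0 of 10 against 1.94%. The shares were the same at any fold. At an unadjusted p under 0.05, 2 members were higher (*Ccnb1* and *Ccne2*) and 1 was lower (*Ccnd3*). Of the 13953 genes tested, 1985 had such a p in either direction. The libraries did not overlap for 7 members that were higher (27.5% of all genes) and for 1 that was lower (17.3% of all genes), with a list median of 0.83 against 0.22 over all genes.

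*Ccnd3* had 156.84 and 117.29 TPM in PRC1ctrl and 52.1 and 44.48 TPM in PRC1cKO, so that both PRC1cKO libraries stood below both controls. Its log2 fold change was -1.48 (standard error 0.29, adjusted p = 0.0816), and with median-of-ratios scaling -1.79 (adjusted p = 0.0467), which is a call. *Ccnd2* had 62.29 and 178.52 TPM against 112.62 and 268.6 TPM, and *Ccnd1* 2.14 and 12.4 against 8.6 and 28.29 TPM. In both genes the second library of each group was the higher and the groups overlapped, with intervals for the log2 fold change of -0.86 to 2.29 and -0.83 to 3.57. *Ccnd3* made up 70.9% and 38.1% of the D-type sum in PRC1ctrl and 30.1% and 13.0% in PRC1cKO, where *Ccnd2* made up 65.0% and 78.7%.

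Among the E-type genes, *Ccne2* had 52.25 and 39.54 TPM in PRC1ctrl and 149.11 and 97.08 TPM in PRC1cKO, a log2 fold change of 1.38 (standard error 0.34) with a adjusted p of 0.130. *Ccne1* had 1.34 and 3.24 TPM against 3.97 and 10.75 TPM (1.28, standard error 0.60, adjusted p = 0.431). The groups were apart for both genes, by little for *Ccne1*. *Ccne2* made up 90.0% to 97.5% of the E-type sum in these 4 low-input libraries and 40.0% to 66.5% in the 8 other libraries, a gap that goes with the kit and the number of cells. *Ccne1* has no opposite-strand overlap in the annotation, and *Ccne2* has one with *Ints8*. Their part in this share was not tested.

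**Figure D3:**
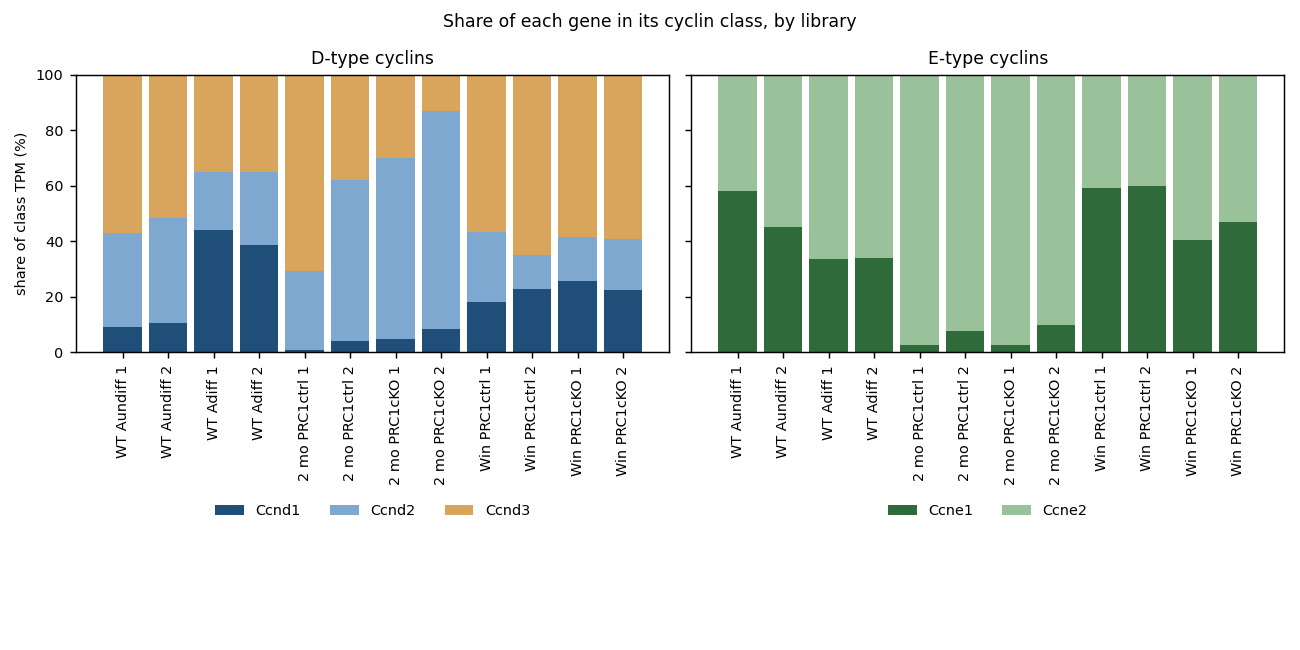
Share of each gene in the summed TPM of its cyclin class (vertical axis, percent) in each of the 12 libraries (bars), for the D type on the left and the E type on the right. *Ccnd1* was the largest share of the D type in the 2 WT Adiff libraries only, and *Ccne2* took 90.0% or more of the E type in the 4 libraries of the 2 mo groups.

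Among the A- and B-type genes at 2 mo, *Ccna2* had 32.83 and 34.1 TPM in PRC1ctrl and 41.51 and 56.67 TPM in PRC1cKO, with a log2 fold change of 0.52 (adjusted p = 0.547). *Ccnb1* had 218.83 and 298.31 against 429.2 and 442.71 TPM, and its interval of 0.16 to 1.38 for the log2 fold change lay above 0 before adjustment (adjusted p = 0.229 after it). *Ccnb2* had 59.11 and 118.22 against 127.67 and 146.17 TPM (adjusted p = 0.502). All 3 genes were higher in both PRC1cKO libraries than in both controls. *Ccnb3* was low, at 1.07 and 0.98 TPM against 3.02 and 2.52 TPM (adjusted p = 0.364). *Ccna1* had 0.05 and 5.15 TPM in PRC1ctrl and 6.9 and 7.18 TPM in PRC1cKO, and the difference between the 2 controls set its error. Without PRC1ctrl replicate 2, *Ccna1* was called with a log2 fold change of 2.94 (adjusted p = 0.0432).

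Summed levels of markers of other cells, and of the sorted cells themselves, differed between the 2 mo labels too. Spermatid genes summed to 761 and 1764 TPM in PRC1ctrl and 64.8 and 58.8 TPM in PRC1cKO, and spermatocyte genes to 237 and 393 against 195 and 197 TPM. Leydig genes, of the steroid-making cells between the tubules, summed to 1.01 and 1.18 TPM in PRC1ctrl and 20.6 and 46.7 TPM in PRC1cKO. Genes of differentiating spermatogonia summed to 249 and 276 against 596 and 698 TPM, and those of undifferentiated spermatogonia to 1084 and 1433 against 684 and 795 TPM. The lists did not all move as a whole. Of the 10 undifferentiated genes, 4 were higher and 6 lower in the fit, with a median log2 fold change of -0.18 and 1 called lower. Of the 7 spermatocyte genes tested, 2 were higher and 5 lower. The part of these marker differences in the cyclin levels was not tested. With median-of-ratios scaling, the median over all genes moved from 0.22 to -0.034, and the log2 fold changes of *Ccna2*, *Ccnb1* and *Ccnb2* shrank to 0.21, 0.45 and 0.39, so part of their size goes with the scaling.

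After Win18446, where retinoic acid synthesis was inhibited, single cyclins passed in both directions. *Ccna1*, *Ccna2*, *Ccnb1* and *Ccne2* were higher and *Ccnb3* and *Ccnd3* lower in the libraries labelled PRC1cKO than in those labelled PRC1ctrl at an adjusted p under 0.05, and none reached the fold needed for a call. Those were 4 of 10 higher against 5.87% of the 16521 genes tested and 2 of 10 lower against 26.7%. The count lower is under its share over all genes, and nothing is read from it. Called by both conditions were 0 of 10 higher against 1.27% and 0 of 10 lower against 10.9%. The groups did not overlap for 5 members that were higher (20.1% of all genes) and 4 that were lower (49.3% of all genes), and the list median was 0.019 against -0.19 over all genes. In these libraries the median gene was thus lower in PRC1cKO, and with median-of-ratios scaling it moved to 0.028, the share of lower among called genes from 89.6% to 77.0%, *Ccnb2* passed as higher (0.38, adjusted p = 0.0444) and *Ccnd3* no longer passed (-0.19, adjusted p = 0.181).

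*Ccnd3* had 151.92 and 144.94 TPM in PRC1ctrl and 103.52 and 116.22 TPM in PRC1cKO (log2 fold change -0.43, standard error 0.11, adjusted p = 0.0280). *Ccnd1*, at 48.36 and 50.97 against 45.25 and 43.84 TPM, had a log2 fold change of -0.15 (95% interval -0.42 to 0.12), which turned to 0.086 with median-of-ratios scaling. *Ccnd2* was at 67.38 and 27.41 TPM in PRC1ctrl and 28.13 and 36.47 TPM in PRC1cKO, and PRC1ctrl replicate 1 alone stood high. Without that library the log2 fold change of *Ccnd2* was 0.22, and without PRC1ctrl replicate 2 it was -1.05, so its sign rested on 1 library. The D-type sum was 267.7 and 223.3 TPM against 176.9 and 196.5 TPM, and *Ccnd3* held 56.8% to 64.9% of it in all 4 libraries.

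*Ccne2* had 8.2 and 7.32 TPM in PRC1ctrl and 14.99 and 12.22 TPM in PRC1cKO (0.73, standard error 0.16, adjusted p = 0.0165). *Ccne1*, at 11.88 and 10.98 against 10.25 and 10.88 TPM, had a log2 fold change of -0.10 (95% interval -0.44 to 0.24), turning to 0.12 with median-of-ratios scaling. The E-type genes thus parted here, and *Ccne2* went from 40.8% and 40.0% of the E-type sum to 59.4% and 52.9%.

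*Ccna2* had 56.4 and 55.32 TPM in PRC1ctrl and 80.74 and 81.18 TPM in PRC1cKO, a log2 fold change of 0.53 (standard error 0.11, adjusted p = 0.0120). *Ccnb1* had 125.87 and 107.72 against 169.29 and 193.1 TPM (0.63, standard error 0.13, adjusted p = 0.0124). *Ccnb2*, the other B-type cyclin of mitosis, had 40.19 and 37.27 against 43.26 and 42.32 TPM (0.14, 95% interval -0.14 to 0.42). *Ccna1* had 2.14 and 2.83 against 5.26 and 4.62 TPM (0.77, adjusted p = 0.0225). *Ccnb3* had its highest level among the TruSeq libraries in the controls, at 7.08 and 6.5 TPM against 3.17 and 3.31 TPM (-0.88, standard error 0.16, adjusted p = 0.00884). The replicates of *Ccna2* and *Ccnb3* lay close together in each group, and the groups were well apart.

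In fits with 1 library fewer, all 6 genes kept their direction. Without PRC1ctrl replicate 2 all 6 passed, and *Ccnd2* joined them as lower. Without PRC1ctrl replicate 1, *Ccna1* (0.63, adjusted p = 0.0582) and *Ccnd3* (-0.40, adjusted p = 0.0712) missed. Without PRC1cKO replicate 1 *Ccnb1* passed and 5 missed: *Ccna2* (0.53, adjusted p = 0.0695), *Ccnb3* (-0.85, 0.0639), *Ccna1* (0.70, 0.136), *Ccne2* (0.60, 0.115) and *Ccnd3* (-0.35, 0.151). Without PRC1cKO replicate 2 *Ccne2* and *Ccnb3* passed and 4 missed: *Ccna2* (0.52, adjusted p = 0.0621), *Ccnb1* (0.54, 0.0774), *Ccna1* (0.85, 0.0817) and *Ccnd3* (-0.52, 0.0594). Spermatid genes summed to 141 and 129 TPM in PRC1ctrl and 25.9 and 24.0 TPM in PRC1cKO, where *Prm2* and *Acrv1* were listed at 0, spermatocyte genes to 94.9 and 113 against 62.3 and 56.9 TPM, and Leydig genes to 396 and 81.9 against 72.4 and 20.2 TPM. Genes of differentiating spermatogonia summed to 638 and 704 TPM in PRC1ctrl and 811 and 894 TPM in PRC1cKO. Of these 8 genes, 6 were higher and 2 lower in the fit, with 3 called higher. Those of undifferentiated spermatogonia summed to 1153 and 1223 against 854 and 963 TPM. Of these 10 genes, 1 was higher and 9 lower, with 1 called lower. The part of these marker differences in the cyclin levels, of *Ccnb3* among them, was not tested.

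Whether the label made a different change at 2 mo and after Win18446 was tested by an interaction term over the 8 PRC1 libraries. Of the 10 cyclins, 1 had an adjusted p under 0.05 with a lower change after Win18446 (5.03% of the 18354 genes tested), and 0 a higher one (2.77%). This was *Ccnb3*, whose PRC1cKO libraries were above the controls at 2 mo and below them after Win18446, with a difference of log2 fold changes of -1.77 (standard error 0.28, adjusted p = 0.0176). It missed with median-of-ratios scaling (-1.29, adjusted p = 0.112) and without any 1 of the Win18446 libraries (adjusted p from 0.0824 to 0.113). It missed narrowly without 2 mo PRC1cKO replicate 2 (adjusted p = 0.0518). *Ccnd3* had a difference of 1.04 (adjusted p = 0.0779), its lower level in PRC1cKO being the larger at 2 mo, and passed only without 2 mo PRC1ctrl replicate 2 (1.25, adjusted p = 0.0437), where *Ccna1* passed as well (-2.16, adjusted p = 0.0337). With scaling, the median difference over all genes moved from -0.41 to 0.11 and the share of lower among genes that passed from 64.5% to 27.1%, and the kit, the number of cells and the treatment cannot be told apart in this term.

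Over the 4 groups made with the TruSeq kit, WT Adiff held the highest mean of 7 of the 10 cyclins: *Ccnd1*, *Ccne1*, *Ccne2*, *Ccna1*, *Ccna2*, *Ccnb1* and *Ccnb2*, although *Ccna1* overlapped there with Win18446 PRC1cKO. For *Ccna2* the order ran from WT Adiff (186 TPM) through Win18446 PRC1cKO (81.0 TPM) and WT Aundiff (78.5 TPM) to Win18446 PRC1ctrl (55.9 TPM), and the middle groups overlapped. *Ccnb1* ran in that order too, at 294, 181, 146 and 117 TPM, with no overlap between neighbours. *Ccne2* had 70.8 TPM in WT Adiff, 13.8 TPM in WT Aundiff and 13.6 TPM in Win18446 PRC1cKO, which overlapped, and 7.76 TPM in Win18446 PRC1ctrl. *Ccnd1* ran from WT Adiff (116 TPM) through Win18446 PRC1ctrl (49.7 TPM) and PRC1cKO (44.5 TPM) to WT Aundiff (30.0 TPM), with neighbours apart. *Ccnd2* and *Ccnd3* were highest in WT Aundiff, at 109 and 165 TPM, and *Ccnb3* in Win18446 PRC1ctrl, at 6.79 TPM. The WT and Win18446 groups differ in strain, genotype and treatment at once, and these orders are given without a test.

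Over the same 8 libraries, the genes whose log2 levels followed a cyclin most closely, among 10325 protein-coding genes with a mean of at least 5 TPM, were *M1ap*, *Birc5* and *Psmd8* for *Ccna2* (Pearson r from 0.989 to 0.994), *Vps25*, *Arpc2* and *Ndufa12* for *Ccnb1* (0.984 to 0.997), *Wipi2*, *Lonrf1* and *Ankrd13a* for *Ccnd1* (0.991 to 0.992) and *Ptcra*, *Svbp* and 1810009A15Rik for *Ccne2* (0.991 to 0.995). *Birc5*, which encodes the mitotic protein survivin, ran from 33.15 and 38.81 TPM in WT Aundiff to 92.14 and 82.97 TPM in WT Adiff. The 8 points share 4 groups, so that r mostly follows the group means, and it is a description only.

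The kinases that the cyclins bind moved unevenly in the WT comparison. *Cdk2*, the partner of the E and A types, had 51.43 and 47.18 TPM in WT Aundiff and 152.24 and 136.11 TPM in WT Adiff and was called (1.53, adjusted p = 0.00126). *Cdk6*, a partner of the D type, was called at 21.66 and 31.96 against 45.83 and 84.76 TPM (1.21, adjusted p = 0.0312). *Cdk4*, the other D-type partner and the most abundant of the 4, fell from 513.82 and 595.01 to 307.59 and 380.44 TPM (-0.69, adjusted p = 0.0147). *Cdk1*, the mitotic kinase, had 82.62 and 71.99 against 84.53 and 82.15 TPM and did not pass (0.11, standard error 0.14, adjusted p = 0.554). The change from *Ccnd3* towards *Ccnd1* was thus accompanied by less *Cdk4* and more *Cdk6* transcript.

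At 2 mo and after Win18446 no kinase partner passed. At 2 mo, *Cdk1* had 70.73 and 108.56 TPM in PRC1ctrl against 124.64 and 153.05 TPM in PRC1cKO (0.65, adjusted p = 0.445), and *Cdk2* 12.08 and 21.71 against 23.34 and 53.87 TPM (1.08, adjusted p = 0.455). *Cdk4* stood at 52.27 and 118.24 against 95.19 and 183.52 TPM and *Cdk6* at 6.48 and 8.82 against 4.04 and 5.75 TPM, which made *Cdk6* the only partner with a lower mean. After Win18446 the log2 fold changes were 0.31 for *Cdk1*, 0.065 for *Cdk2*, 0.29 for *Cdk4* and -0.17 for *Cdk6*, with adjusted p-values from 0.0828 to 0.700.

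**Figure D4:**
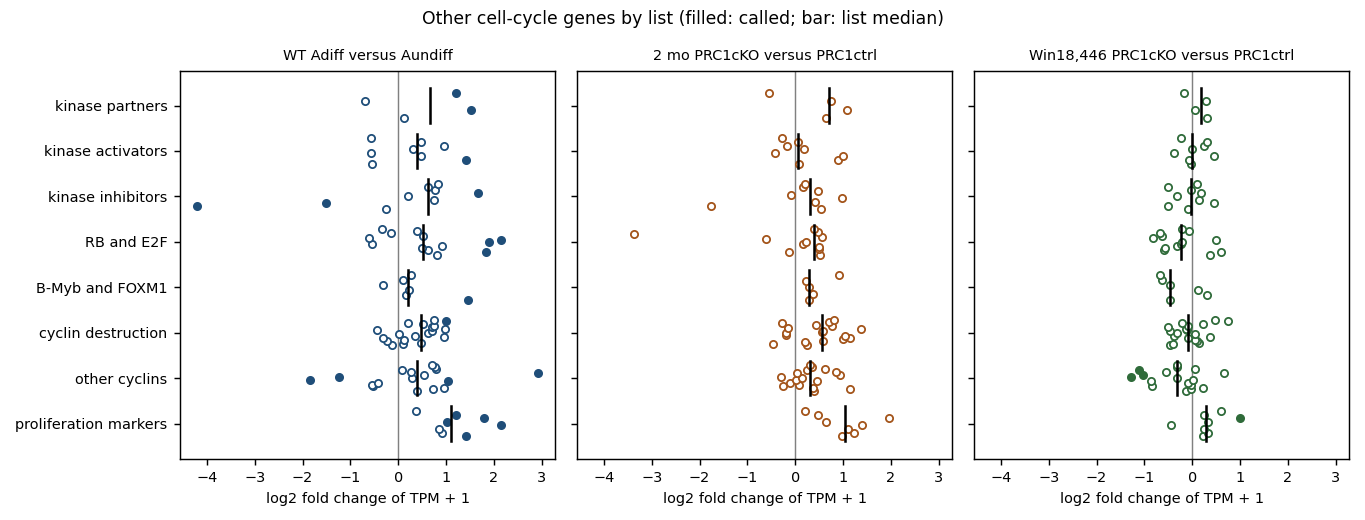
Log2 fold change of TPM + 1 (horizontal axis) of each tested gene (point) in 8 lists of other cell-cycle genes, for the 3 comparisons, with filled points for called genes and a bar at the list median. In WT, 16 genes were called higher and 4 lower, at 2 mo no gene was called, and after Win18446 1 was called higher and 3 lower.

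Over 8 lists of other cell-cycle genes, 83 in all, 16 were called higher and 4 lower in WT Adiff, against 11.1% and 9.24% of all genes tested. The lists with 1 or 2 genes called higher, apart from the kinase partners, lie near or below the first of these shares, and nothing is read from their counts. Of 8 proliferation markers, 5 were called higher and 0 lower, led by *Mki67* (2.15), *Rrm2* (1.80), a subunit of the enzyme that makes DNA building blocks, and *Mcm2* (1.41), with a list median of 1.10. Of the 13 RB and E2F genes, 3 were called higher: the repressor E2Fs *E2f8* (2.16) and *E2f7* (1.89) and the activator *E2f2* (1.84). Among 9 kinase inhibitors, *Cdkn2c*, which blocks CDK4 and CDK6, was called higher (1.67), and *Cdkn1b* (-4.20) and *Cdkn1c* (-1.51), which encode p27 and p57, were called lower. *Cdc25a*, a phosphatase that activates CDK2, was called higher among 8 kinase activators (1.41). *Foxm1*, the factor of G2 and M phase genes, was 1 of 6 in its list (1.46), and *Ube2c*, the ubiquitin-conjugating enzyme through which B-type cyclins are destroyed, 1 of 19 in the list of cyclin destruction (1.00). Of 17 other cyclin genes, *Ccno* (2.93) and *Ccnj* (1.04) were called higher and *Ccnjl* (-1.84) and *Ccnl1* (-1.23) lower.

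At 2 mo, 78 of these genes could be tested and none was called by limma, with 6 higher and 2 lower at an unadjusted p under 0.05. Of all 13953 genes tested, 1985 had such a p in either direction, and nothing is read from the counts of 6 and 2. After Win18446, *Rrm2* (1.00) was the 1 gene called higher, and *Ccnl1* (-1.28), *Ccnt2* (-1.12) and *Ccnl2* (-1.03) were called lower. Of 83 genes, these counts of 1 and 3 are no larger a share than the 1.27% and 10.9% over all genes. These 3 cyclins work with transcription or splicing kinases and not in the division cycle. The proliferation markers had a list median of 0.29 against -0.19 over all genes after Win18446, and of 1.04 against 0.22 at 2 mo. After Win18446, 7 of the 8 markers were higher and 1 lower, which was *Mki67* (-0.45, adjusted p = 0.407). The medians of the other lists there ran from -0.47 (B-Myb and FOXM1) to 0.18 (kinase partners). In the interaction term 2 of the 83 genes passed, *Rbl2*, an RB relative (2.69, adjusted p = 0.0485), and *Lin9*, a subunit of the complex that activates mitotic genes (-1.53, adjusted p = 0.0283). That is 1 higher and 1 lower of 83, against 2.77% and 5.03% of all genes tested, and nothing is read from these counts.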

How the data were processed

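The 12 libraries were grouped by their labels. Per the labels, the authors trimmed reads with Trim Galore 0.6.6 and used the mouse build GRCm38 (mm10). The deposited table holds TPM values that the authors estimated per gene with RSEM 1.3.3, from an annotation that is not given for that step in the sources used here. The study's methods name GENCODE vM24 for its separate read counting. No read counts were used, so depth is unknown and a count model was not applied. TPM values were read per gene, and 55144 of 55385 identifiers were found in GENCODE vM21.

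Differences were fitted with limma 3.58.1 in R 4.3.3 on log2(TPM + 1), with trended and robust moderation, two-sided, for genes of at least 1 TPM in at least 2 of the libraries compared. A fold change is on this scale and understates low genes. P-values were adjusted by Benjamini-Hochberg over all genes tested. A call needed a log2 fold change over 1 in size with an adjusted p below 0.05, and in the interaction only the latter. The fit was tested on simulated data. Alternatives were a pseudocount of 0.1, no filter, a filter at 5 TPM on average, scaling by median of ratios, plain moderation, a replicate block, a fit over all 12 libraries and leaving out each library. Copies were sought with BLAST+ 2.17.0 and promoters read from RefSeq (GRCm38.p6). The named genes were all 10 cyclins, all 4 kinase partners and, in other lists, up to 3 called genes per direction with the largest change. The cyclins and the gene lists were chosen with earlier results of these data known.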

Additional observations from a re-analysis of the deposited data

Results flagged for a closer look

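For *Ccnb3* the effect of the label differed between 2 mo and Win18446, with a difference of log2 fold changes of -1.77 that passed the interaction test (adjusted p = 0.0176), and the PRC1cKO libraries stood above both controls in one experiment and below both in the other. Its levels at 2 mo, from 0.98 to 3.02 TPM, lie near the pseudocount of 1. For *Ccne1* the PRC1cKO libraries were likewise all above the controls at 2 mo and all below them after Win18446, with a difference of -1.38. This one was tested and did not pass (adjusted p = 0.243), and the lower side rests on a gap of 0.1 TPM between 10.88 and 10.98 TPM.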

How the results depend on the processing

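In WT, 4 or 5 cyclins were called higher under each alternative run, with *Ccnb1* as the fifth at a pseudocount of 0.1 and without WT Aundiff replicate 1 or WT Adiff replicate 2, and the count of cyclins called lower ran from 0 to 1 without single libraries. At 2 mo, where no cyclin was called, median-of-ratios scaling called 1 lower (*Ccnd3*), the fit over all 12 libraries 1 higher (*Ccne2*) and 1 lower (*Ccnd3*), and leaving out single libraries 0 to 1 higher. After Win18446, 1 was called lower with a pseudocount of 0.1 (*Ccnb3*), and 0 to 1 without single libraries. In the interaction, 0 passed as lower with a mean TPM of at least 5, which removed *Ccnb3*, and 0 with median-of-ratios scaling, and without single libraries 0 to 2 passed as lower and 0 to 1 as higher. The cause was not tested where none is named. Of 462 cyclin fold changes under alternatives, 429 kept their direction and side of the threshold, 16 passed it, 6 no longer did and 11 changed sign, none of these called. With median-of-ratios scaling the sign changed for *Ccnd1* (0.086) and *Ccne1* (0.12) after Win18446 and for *Ccnb1* (0.57) and *Ccnb2* (0.13) in the interaction. Without single libraries it changed for *Ccnd2* at 2 mo (-0.037 to 1.47) and after Win18446 (-1.05 to 0.22), and in the interaction for *Ccna1* (-2.16 to 0.39), *Ccnb1* (-0.36 to 0.085) and *Ccna2* (-0.22 to 0.22). At any fold, the fit over all 12 libraries left 0 cyclins higher and 1 lower after Win18446 at an adjusted p under 0.05, against 4 and 2, and no filter left 1 and 1. In WT the fit over all 12 libraries left 5 and 2, against 6 and 2, since *Ccnb2* and *Ccnd2* missed and *Ccnb3* passed. At 2 mo that fit gave 3 higher (*Ccnb1*, *Ccnb3* and *Ccne2*) and 1 lower (*Ccnd3*), against 0 and 0. Over all genes, that fit passed 2156 at any fold at 2 mo against 301 as planned. It passed 2342 against 5385 after Win18446 and 4300 against 5892 in WT.

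The replicate numbers were not taken as pairs, since there are 2 pairs a comparison and the labels name no shared batch. The correlation of same-numbered deviations was 0.158 in WT, 0.381 at 2 mo and 0.122 after Win18446. With the replicate block, 3 cyclins were called higher at 2 mo (*Ccnd1*, *Ccne1* and *Ccne2*) and 1 lower (*Ccnd3*). At any fold 6 were higher and 1 lower at an adjusted p under 0.05, with *Ccnb1*, *Ccnb2* and *Ccnd2* added. Over all 13953 genes tested, 2793 passed at any fold with the block, against 301 without it. The counts of 4 and 0 in WT, 0 and 0 after Win18446 and 0 and 1 in the interaction were as without the block.

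Over all genes, the counts called higher and lower at 2 mo were 31 and 270, against 1074 and 1098 with the block, 662 and 1049 over all 12 libraries, 84 and 833 with median-of-ratios scaling, 34 and 406 with a pseudocount of 0.1, 6 and 90 with a mean TPM of at least 5, 0 and 0 by limma without a filter (2683 at an unadjusted p under 0.05), and 1 to 124 and 44 to 149 without single libraries. In WT the count lower was 1430, against 869 with a mean TPM of at least 5 and 816 to 1545 without single libraries. After Win18446 it was 210 higher and 1807 lower, against 381 higher with a pseudocount of 0.1, 373 with median-of-ratios scaling, 104 and 851 with a mean TPM of at least 5, and 139 to 290 and 899 to 1981 without single libraries. In the interaction it was 509 and 924, against 227 and 243 with a pseudocount of 0.1, 543 lower without a filter, 90 and 86 with a mean TPM of at least 5, 867 and 322 with median-of-ratios scaling, and 15 to 322 and 6 to 1214 without single libraries. With 2 libraries a group and unknown depth, a cyclin that did not pass is not shown to be alike between groups.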
